A study of Mus musculus with 46 samples.

Results

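Immediate early genes are switched on within minutes of a stimulus without new protein synthesis, and 10 of them that do not encode subunits of the AP-1 transcription factor were followed in the liver of mice treated with sunscreen. The genes were Egr1, Ier2, Ier3, Btg2, Zfp36, Dusp1, Nr4a1, Klf6, Myc and Gadd45b, taken as the probe sets whose only gene symbol was exactly one of these names. Each name matched 1 probe set, which gave 10 genes out of the 19938 that had a probe set with 1 symbol. The livers came from 46 hairless mice of the SKH:QS stock, and the RNA of each went on an Affymetrix whole-transcript array of its own. The mice formed 2 experiments, virgin mice and mice at about day 17 of gestation, each with 4 arms. A sunscreen with zinc oxide nanoparticles (nano ZnO), a sunscreen with zinc oxide microparticles (micro ZnO) or the sunscreen without metal oxide particles (formulation) was put on the back 6 times in 4 days, and a further arm was left untreated. The zinc of both kinds of particle was the stable isotope 68Zn, and livers were collected on day 5. There were 6 virgin mice in each arm, and among pregnant mice 6 with nano ZnO, 5 with micro ZnO, 6 with formulation and 5 untreated. Mice of all arms were housed singly with 14 hours of light and 10 hours of dark, and wore Elizabethan collars, and were killed by cervical dislocation after injected Xylase and ketamine. No genotype or transgene separates the arms. The labels call the arrays biological replicates.

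The products of the 10 genes fall into a few roles. Egr1, Klf6 and Myc are DNA-binding transcription factors, Nr4a1 is an orphan nuclear receptor, and Ier2 and Ier3 are small proteins of the early response. Dusp1 is a phosphatase that switches off the p38, JNK and ERK kinases, Zfp36 (tristetraprolin) speeds the decay of mRNAs with AU-rich elements, and Btg2 and Gadd45b act in growth arrest and stress signalling. Mitogens, cytokines, hormones, stress and tissue handling all switch such genes on through ERK, p38 and JNK kinases and the factors SRF, ELK and CREB, and liver does so after partial hepatectomy. Their transcripts are mostly short-lived, so that their levels follow recent signals closely.

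Values are log2 signals after RMA, in which a difference of 1 is a 2-fold difference, and they are compared between arrays for the same probe set only. Medians of the arrays were 4.66 to 4.90 in the virgin experiment and 3.98 to 4.12 in the pregnant experiment, so levels were not compared between the experiments. Arrays of one experiment correlated at 0.968 to 0.990 (virgin) and 0.971 to 0.990 (pregnant) over all probe sets. The 8 hepatocyte markers (such as Alb and Apob) averaged 12.3 to 13.8 in virgin and 11.97 to 13.6 in pregnant livers. The width of the virgin arrays differed by arm: their interquartile range was 2.90 ± 0.06 with nano ZnO, 2.91 ± 0.03 with micro ZnO, 2.83 ± 0.05 with formulation and 2.97 ± 0.07 in untreated mice (SD, n = 6 each). The formulation arrays (2.76 to 2.89) and the untreated arrays (2.90 to 3.09) did not overlap in this width. Its part in the results was not tested beyond the fits with width as a covariate that are given beside them.

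In virgin mice the formulation without particles gave the highest mean of all 4 arms for 10 of the 10 genes. The share of all probe sets with formulation highest was not computed. For Myc this rank rested on formulation replicate 3: without it nano ZnO minus formulation was 0.11. Against untreated mice 8 of the 10 passed the test, all of them higher, and Klf6 and Myc did not. Btg2 was 5.98-fold, Dusp1 3.84-fold, Egr1 3.15-fold and Zfp36 3.05-fold the untreated level. Called here means an adjusted p under 0.05 in limma over the 23410 probe sets with a symbol. In this comparison 26.5% of all these probe sets were called (11.5% of all were called higher and 15% of all lower), and the median change was 1.47 for the 10 genes and 0.03 for all probe sets.

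**Figure D1:**
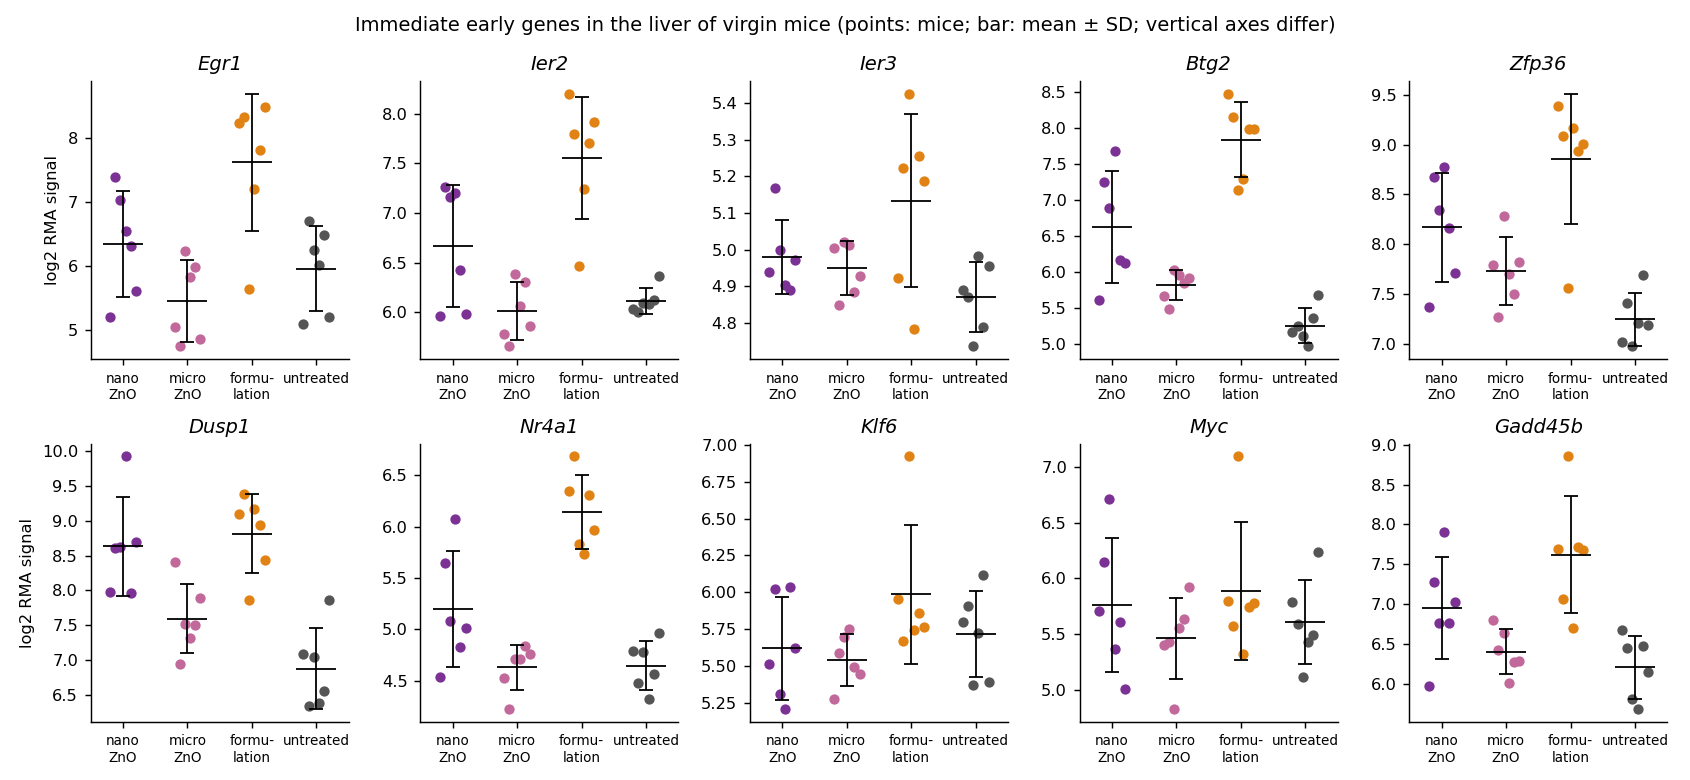
Log2 RMA signal (vertical axis, own scale for each gene) of the 10 genes in virgin mice by arm; points are mice (n = 6 per arm), the bar is the mean and the whisker the SD. The formulation arm has the highest mean in each panel, and in Klf6 and Myc a single formulation mouse stands above the rest.

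Among the transcription factors, Egr1, a zinc finger protein, had a lowest, median and highest signal of 5.63, 8.02 and 8.47 in formulation mice, against 5.09, 6.13 and 6.70 in untreated mice. All formulation mice but replicate 3, which lay inside the untreated range, were above every untreated mouse (5 of 6). The change was 1.66 ± 0.41 (log2 ± SE, 95% interval 0.81 to 2.50, adjusted p = 0.00511). Nr4a1 had a signal of 5.73, 6.13 and 6.68 in formulation mice, against 4.32, 4.67 and 4.96 in untreated mice. The groups did not overlap, and the change was 1.497 ± 0.19 (1.10 to 1.89, adjusted p = 1.795e-05).

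Klf6, a Krüppel-like factor, had a lowest, median and highest signal of 5.67, 5.81 and 6.92 in formulation mice, against 5.38, 5.76 and 6.12 in untreated mice. Myc, which drives growth and ribosome production, had 5.33, 5.76 and 7.09 in formulation mice, against 5.12, 5.55 and 6.24 in untreated mice. Both groups overlapped for both genes, and only formulation replicate 3 was above every untreated mouse. Differences of 0.27 ± 0.17 for Klf6 (95% interval -0.09 to 0.62) and 0.28 ± 0.26 for Myc (-0.25 to 0.80) did not pass (adjusted p = 0.257 and 0.433). Without replicate 3 they were 0.08 for Klf6 and 0.03 for Myc.

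Of the small early-response proteins, Ier2 had a lowest, median and highest signal of 6.47, 7.75 and 8.20 in formulation mice, against 6.00, 6.09 and 6.37 in untreated mice, with no overlap. Its change was 1.44 ± 0.24 (0.95 to 1.92, adjusted p = 0.0002011). Ier3 had 4.78, 5.21 and 5.43 in formulation mice, against 4.74, 4.88 and 4.98 in untreated mice. The groups overlapped, with 4 of 6 formulation mice above every untreated mouse, and the change was the smallest of the 8 called, 0.26 ± 0.08 (0.09 to 0.43, adjusted p = 0.02243). This call was lost when any 1 of 4 arrays was left out, among them formulation replicate 3 (0.20, adjusted p = 0.0571), and after a further quantile normalization (0.15, adjusted p = 0.228).

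The 2 largest changes were in genes that restrain growth and signalling. Btg2, an antiproliferative partner of the mRNA deadenylation complex, had a lowest, median and highest signal of 7.14, 7.98 and 8.47 in formulation mice, against 4.96, 5.21 and 5.67 in untreated mice. The groups were far apart, and the change was 2.58 ± 0.25 (2.06 to 3.10, adjusted p = 4.475e-07). Dusp1 had 7.87, 9.02 and 9.39 in formulation mice, against 6.33, 6.80 and 7.86 in untreated mice, and the lowest formulation mouse lay just above the highest untreated mouse. Its change was 1.94 ± 0.30 (1.32 to 2.56, adjusted p = 0.0001228).

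Zfp36 had a lowest, median and highest signal of 7.56, 9.05 and 9.38 in formulation mice, against 6.97, 7.20 and 7.69 in untreated mice. Formulation replicate 3, the lowest, was the only one inside the untreated range, and the change was 1.61 ± 0.24 (1.11 to 2.11, adjusted p = 9.458e-05). Gadd45b, a stress sensor that binds the kinase MTK1, had 6.70, 7.68 and 8.86 in formulation mice, against 5.68, 6.29 and 6.67 in untreated mice, with no overlap. Its change was 1.42 ± 0.28 (0.85 to 1.98, adjusted p = 0.0008595). Thus 5 of the 10 genes (Ier2, Btg2, Dusp1, Nr4a1 and Gadd45b) had every formulation mouse above every untreated mouse, which held for 2.81% of all probe sets.

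With the width of each array as a covariate, 2 of the 8 calls against untreated mice were kept, Btg2 at 2.02 ± 0.32 (adjusted p = 0.00329) and Nr4a1 at 1.23 ± 0.26 (adjusted p = 0.0243). The other 6 were still positive and did not pass, with 0.51 for Egr1, 0.90 for Ier2, 0.20 for Ier3, 1.04 for Zfp36, 1.64 for Dusp1 and 1.39 for Gadd45b. Over the 24 virgin arrays the mean of the 10 genes and the width correlated at -0.742, a description over arrays that share the same 4 arms. The covariate and the arm overlap, so the share of each cannot be told apart. After the further quantile normalization, which also equalises width, only the call of Ier3 was lost of the 8.

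**Figure D2:**
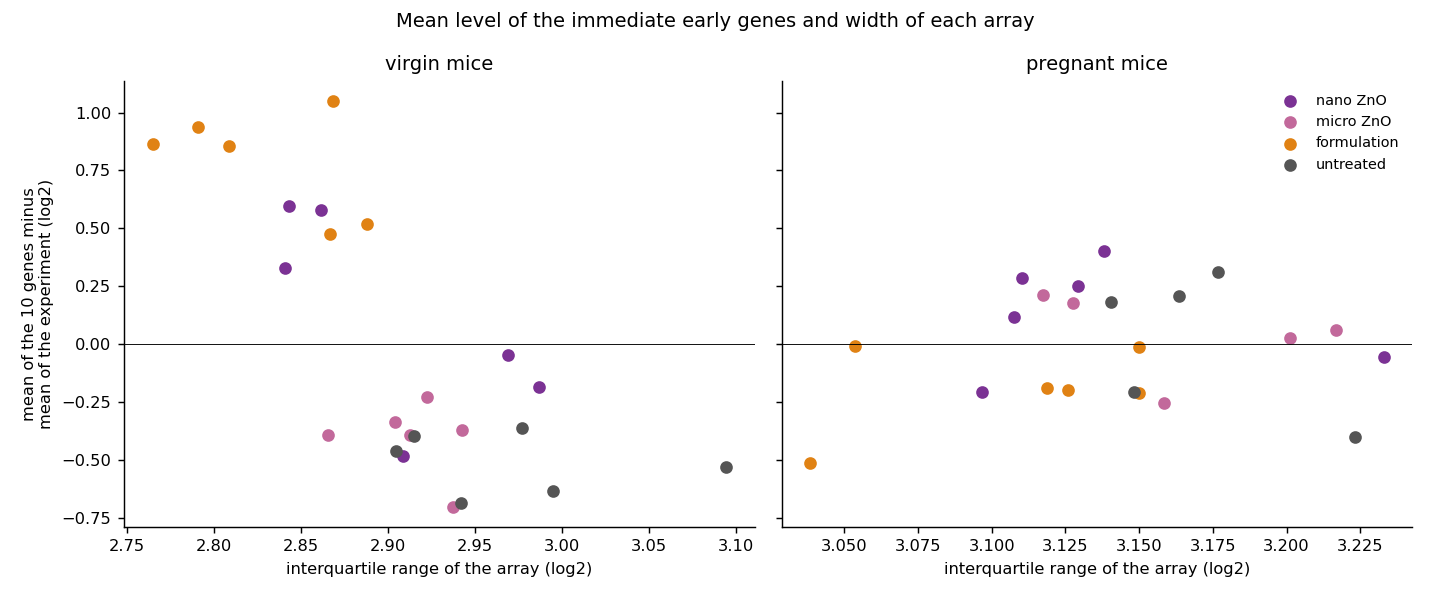
Mean of the 10 genes in each mouse, as log2 signal minus the mean of its experiment (vertical axis), against the interquartile range of the log2 signal of its array (horizontal axis), for virgin mice (left) and pregnant mice (right). Points are mice coloured by arm, and the 6 formulation mice of the virgin panel lie at the upper left, at widths of 2.76 to 2.89.

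The start sites of the genes that changed most are shown because these genes moved together. RefSeq promoter windows of the assembly GRCm38.p6, from 250 bases before to 50 bases after the start, were matched by symbol for 7 of the 10 genes. The windows below belong to the 4 with the largest formulation change among those 7: Btg2 at chr1:134079106-134079405 (minus strand), Dusp1 at chr17:26508423-26508722 (minus strand), Zfp36 at chr7:28379179-28379478 (minus strand) and Nr4a1 at chr15:101266596-101266895 (plus strand). Each is written from 5′ to 3′ on the strand of the gene. Capitals mark the cyclic-AMP response element (TGACGTCA, or TGACG or CGTCA alone), the CArG box that SRF binds, and the EGR site (GCGGGGGCG or GCGTGGGCG and their reverse complements).
Btg2: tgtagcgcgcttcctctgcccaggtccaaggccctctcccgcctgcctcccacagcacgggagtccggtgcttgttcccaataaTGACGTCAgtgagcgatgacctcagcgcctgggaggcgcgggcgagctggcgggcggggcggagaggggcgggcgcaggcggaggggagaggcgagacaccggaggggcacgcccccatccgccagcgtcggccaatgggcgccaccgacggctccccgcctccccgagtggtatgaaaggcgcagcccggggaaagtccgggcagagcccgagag
Dusp1: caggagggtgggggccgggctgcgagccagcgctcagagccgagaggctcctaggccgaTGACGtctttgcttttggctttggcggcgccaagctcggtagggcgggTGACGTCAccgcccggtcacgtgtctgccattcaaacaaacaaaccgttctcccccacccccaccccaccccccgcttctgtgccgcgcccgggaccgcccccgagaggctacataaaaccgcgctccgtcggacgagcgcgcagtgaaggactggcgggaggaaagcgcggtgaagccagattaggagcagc
Zfp36: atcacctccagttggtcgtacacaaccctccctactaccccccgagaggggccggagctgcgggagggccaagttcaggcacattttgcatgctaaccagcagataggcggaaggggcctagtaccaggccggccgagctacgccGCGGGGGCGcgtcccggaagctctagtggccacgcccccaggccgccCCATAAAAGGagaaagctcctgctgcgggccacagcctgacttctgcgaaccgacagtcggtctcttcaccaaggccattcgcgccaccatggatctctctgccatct
Nr4a1: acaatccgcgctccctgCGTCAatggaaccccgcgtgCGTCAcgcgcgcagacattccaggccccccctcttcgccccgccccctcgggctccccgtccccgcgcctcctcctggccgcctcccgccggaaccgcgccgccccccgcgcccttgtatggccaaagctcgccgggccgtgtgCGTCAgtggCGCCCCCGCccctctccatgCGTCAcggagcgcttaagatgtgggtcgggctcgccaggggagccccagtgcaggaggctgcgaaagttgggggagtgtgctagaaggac

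Btg2 and Dusp1 each carried the full element TGACGTCA, at -166 to -159 in Btg2 and at -143 to -136 in Dusp1, counted from the start site. This element stood in 2 of the 7 windows and in 1.79% of all 32851 windows of the same length, searched on both strands. Nr4a1 carried 4 copies of CGTCA, and 20.8% of all windows held TGACG or CGTCA, counted also within the full element. Zfp36 held a CArG box at -58 to -49, a motif found in 1.63% of all windows, and an EGR site at -105 to -97. Nr4a1 had an EGR site at -60 to -52, and 3.47% of all windows have one. The windows of Ier3, Klf6 and Gadd45b held none of these letters, and the AP-1 site (TGACTCA or TGAGTCA) was in 0 of the 7 and in 5.20% of all. The GC box (GGGCGG or CCGCCC) was in 7 of the 7 and in 35.7% of all. The letters TATAAA, searched on the strand of the gene only, were in 1 of the 7 (Gadd45b) and in 8.32% of all. These are matches of letters and say nothing of binding in these livers.

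With nano ZnO sunscreen 3 of the 10 genes were higher than in untreated virgin mice, Btg2, Zfp36 and Dusp1, and none was lower. In this comparison 11.9% of all probe sets were called (4.77% of all were called higher and 7.18% of all lower), and the median change was 0.55 for the 10 genes and 0.02 for all probe sets. Dusp1 had a lowest, median and highest signal of 7.97, 8.61 and 9.93 in nano ZnO mice, against 6.33, 6.80 and 7.86 in untreated mice. These groups did not overlap, and the change was 1.76 ± 0.30 (1.14 to 2.38, adjusted p = 0.0007253). Dusp1 was the only one of the 10 genes with every nano ZnO mouse above every untreated mouse, which held for 1.74% of all probe sets.

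Btg2 had a lowest, median and highest signal of 5.61, 6.53 and 7.68 in nano ZnO mice, against 4.96, 5.21 and 5.67 in untreated mice. Zfp36 had 7.37, 8.25 and 8.78 in nano ZnO mice, against 6.97, 7.20 and 7.69 in untreated mice. In both genes 5 of 6 nano ZnO mice lay above every untreated mouse, and replicate 1 did not. The changes were 1.37 ± 0.25 for Btg2 (adjusted p = 0.00129) and 0.92 ± 0.24 for Zfp36 (adjusted p = 0.0148).

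Positive differences with nano ZnO that did not pass were 0.55 ± 0.19 for Nr4a1 (adjusted p = 0.0607), 0.75 ± 0.28 for Gadd45b (0.0746), 0.55 ± 0.24 for Ier2 (0.123) and 0.39 ± 0.41 for Egr1 (0.571). Nr4a1 (0.68, adjusted p = 0.0224) and Gadd45b (0.94, adjusted p = 0.0260) passed when nano ZnO replicate 1 was left out, which made 5 called genes. Ier3 (0.11), Myc (0.15) and Klf6 (-0.10) lay near 0. With array width as a covariate Dusp1 (1.61, adjusted p = 0.00887) and Btg2 (1.08, adjusted p = 0.0173) were still called and Zfp36 was not (0.64, adjusted p = 0.147). With a clock score as a covariate (the mean of 8 clock output genes such as Dbp and Nr1d1 minus the mean of 4 genes of the opposite phase such as Cry1) none of the 3 calls was kept, at 1.57 for Btg2, 0.99 for Zfp36 and 2.01 for Dusp1 (adjusted p = 0.176, 0.399 and 0.130). These 3 changes were larger than without the score, and so were their SEs, at 0.42, 0.41 and 0.50. The score averaged 0.75 in nano ZnO mice, 0.54 in micro ZnO mice, -0.40 in formulation mice and -1.32 in untreated mice. It ran from 0.52 to 1.10 in nano ZnO mice and from -1.72 to -0.94 in untreated mice, without overlap. The share of the score and that of the arm thus cannot be told apart, and the part of the clock was not tested further.

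Micro ZnO sunscreen gave no call among the 10 genes against untreated mice (0 of 10 in limma), beside 4.43% of all probe sets. At an unadjusted p under 0.05, 2 of the 10 passed, beside 21.3% of all probe sets. The median change was 0.03 for the 10 genes and 0.01 for all. Dusp1 had a lowest, median and highest signal of 6.94, 7.51 and 8.41 in micro ZnO mice, against 6.33, 6.80 and 7.86 in untreated mice, a difference of 0.72 ± 0.30 (adjusted p = 0.166). Btg2 had 5.48, 5.88 and 6.03 in micro ZnO mice, against 4.96, 5.21 and 5.67 in untreated mice. The groups overlapped in both, and the Btg2 difference of 0.56 ± 0.25 (adjusted p = 0.195) passed when only these 2 arms were fitted (adjusted p = 0.0148). Zfp36 differed by 0.48 ± 0.24 (adjusted p = 0.255). Egr1 stood on the other side, at -0.51 ± 0.41 (-1.36 to 0.34, adjusted p = 0.513), and Ier2, Nr4a1, Klf6 and Myc were at -0.11, -0.02, -0.18 and -0.15.

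**Figure D3:**
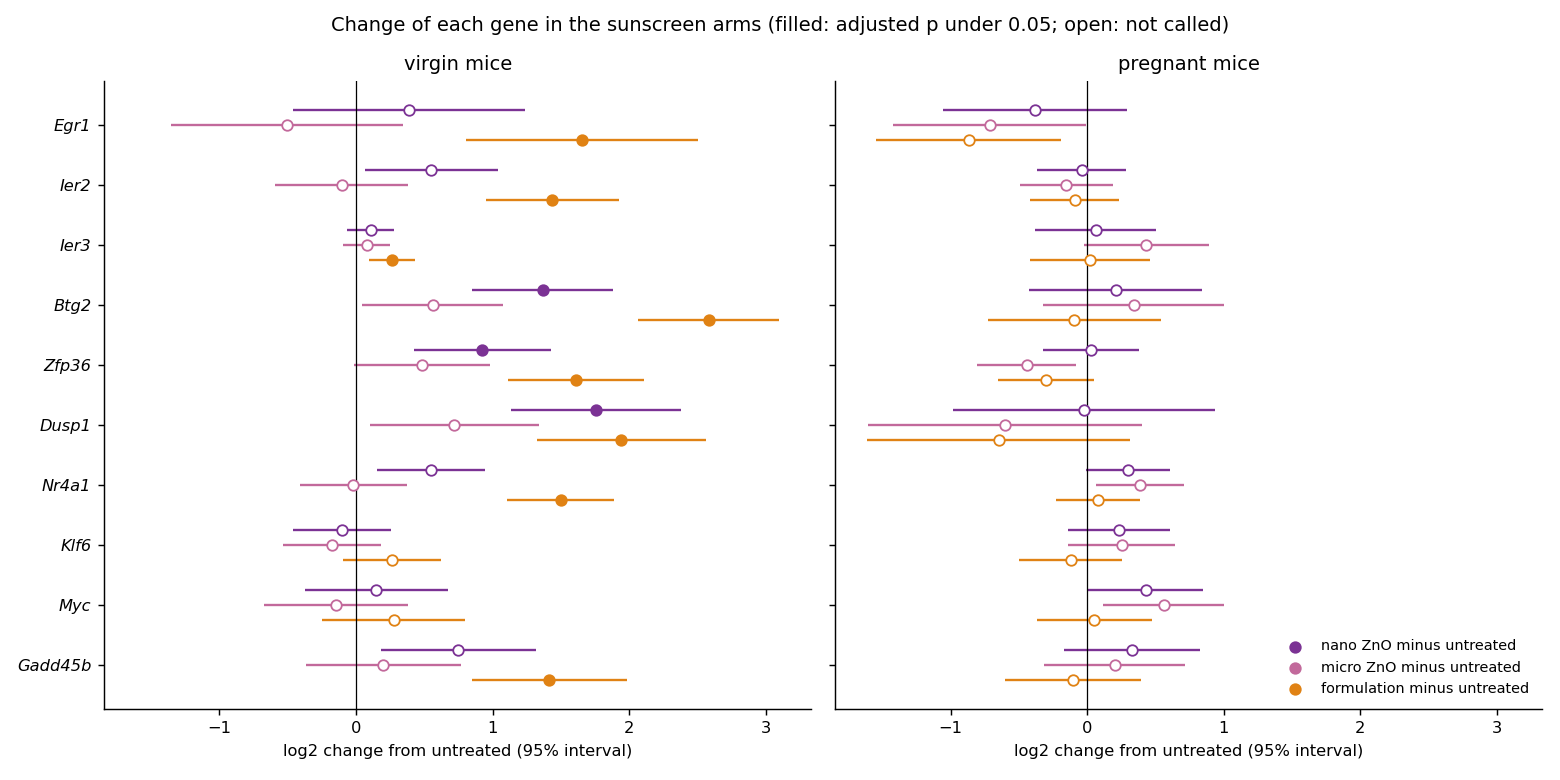
Log2 change from untreated mice (horizontal axis) with its 95% interval for each gene and sunscreen arm, in virgin mice (left) and pregnant mice (right); filled points passed an adjusted p under 0.05 in limma. Filled points are 8 for formulation and 3 for nano ZnO in virgin mice, and there are none for micro ZnO or in pregnant mice.

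Set against formulation, the micro ZnO arm was lower for 7 of the 10 genes in virgin mice and higher for none, beside 6.83% of all probe sets called in either direction and 1.69% of all called lower. Egr1 differed the most, at -2.16 ± 0.41 (adjusted p = 0.00333), with a lowest, median and highest signal of 4.75, 5.44 and 6.24 in micro ZnO mice against 5.63, 8.02 and 8.47 in formulation mice. Btg2 fell by 2.02 ± 0.25 (adjusted p = 7.911e-05), Ier2 by 1.54 ± 0.24 (0.000567) and Nr4a1 by 1.52 ± 0.19 (7.911e-05). For Ier2, Btg2 and Nr4a1 every micro ZnO mouse lay below every formulation mouse, which held for 0.867% of all probe sets. Dusp1 fell by 1.22 ± 0.30, Gadd45b by 1.21 ± 0.28 and Zfp36 by 1.13 ± 0.24 (adjusted p = 0.0153, 0.00954 and 0.00687). Klf6 (-0.44 ± 0.17, adjusted p = 0.123), Myc (-0.42 ± 0.26, 0.337) and Ier3 (-0.18 ± 0.08, 0.189) did not pass. The median difference was -1.22 for the 10 genes and -0.01 for all probe sets. With array width as a covariate, Ier2, Btg2 and Nr4a1 were still called, while Egr1 (-1.48), Zfp36 (-0.79), Dusp1 (-1.05) and Gadd45b (-1.20) were not. All 7 were still called after the further quantile normalization.

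Nano ZnO was lower than formulation for 3 of the 10 genes and higher for none, beside 3.25% of all probe sets called in either direction and 0.722% of all called lower. The 3 were Btg2 (-1.22 ± 0.25, adjusted p = 0.00898), Nr4a1 (-0.95 ± 0.19, 0.00792) and Ier2 (-0.89 ± 0.24, 0.0370). Groups overlapped for each, and Nr4a1 came nearest to separation, with 5 of 6 nano ZnO mice below every formulation mouse. Egr1 (-1.27 ± 0.41, adjusted p = 0.0893), Zfp36 (-0.69 ± 0.24, 0.119), Gadd45b (-0.67 ± 0.28, 0.193) and Klf6 (-0.37 ± 0.17, 0.273) missed the threshold. Dusp1 differed little between these arms, at -0.19 ± 0.30 with a 95% interval of -0.80 to 0.43 (adjusted p = 0.810). Formulation replicate 3 bore on this comparison: without it Egr1 (-1.66, adjusted p = 0.00967) and Zfp36 (-0.95, adjusted p = 0.00761) were also called, 5 in all. The Ier2 call was lost in most of the 12 fits with 1 array left out, as without nano ZnO replicate 1 (-0.75, adjusted p = 0.0995). It was also lost in a test of all probe sets (adjusted p = 0.0649). None of the 3 was called when only these 2 arms were fitted, or with array width or the clock score as a covariate (0 in each). In that order Btg2 was at -1.22, -0.93 and -1.10 (adjusted p = 0.0631, 0.0827 and 0.0522), Nr4a1 at -0.95, -0.82 and -0.81 (0.0514, 0.0634 and 0.0592), and Ier2 at -0.89, -0.61 and -0.74 (0.117, 0.239 and 0.167). These comparisons and those with untreated mice share arms and are not independent of each other.

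Nano ZnO and micro ZnO, which differ in particle size, did not differ for any of the 10 genes after adjustment in virgin mice (0 of 10 in limma, and 0% of all probe sets). The nano ZnO mean was above the micro ZnO mean for 10 of 10 genes, beside 50.4% of all probe sets. At an unadjusted p under 0.05, 5 of the 10 passed, beside 4.72% of all probe sets. These were Dusp1 (1.04 ± 0.30), Egr1 (0.90 ± 0.41), Btg2 (0.80 ± 0.25), Ier2 (0.66 ± 0.24) and Nr4a1 (0.57 ± 0.19), each with an adjusted p of 0.993. The 95% intervals ran from 0.42 to 1.66 for Dusp1 and from 0.29 to 1.32 for Btg2, and the smallest difference was 0.03 (-0.14 to 0.20) for Ier3. Most of the genes ran together over the virgin mice, as given below, so the counts out of 10 are not counts of independent results.

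Single mice differed in how many of the 10 genes lay above every untreated mouse. The share of all probe sets above or below every untreated mouse was not computed for single mice, so these counts are not read as a response. The 6 virgin formulation mice had 7 or 8 of the 10 genes above every untreated mouse, and the micro ZnO mice had 0 to 4. Nano ZnO mice spread from 1 gene (replicate 1) to 9 genes (replicate 3), with 8 in replicate 2, 6 in replicate 4 and 5 in each of replicates 5 and 6. Below every untreated mouse lay 0 to 3 of the genes in micro ZnO mice, 0 to 2 in nano ZnO mice and 0 in formulation mice. Virgin formulation replicate 3 had a pattern of its own within its arm, with the highest Klf6 (6.92), Myc (7.09), Ier3 (5.43) and Gadd45b (8.86) and the lowest Egr1 (5.63), Ier2 (6.47), Btg2 (7.14), Zfp36 (7.56) and Dusp1 (7.87) of the 6. Without it the change against untreated mice was 2.05 for Egr1 and 1.87 for Zfp36.

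**Figure D4:**
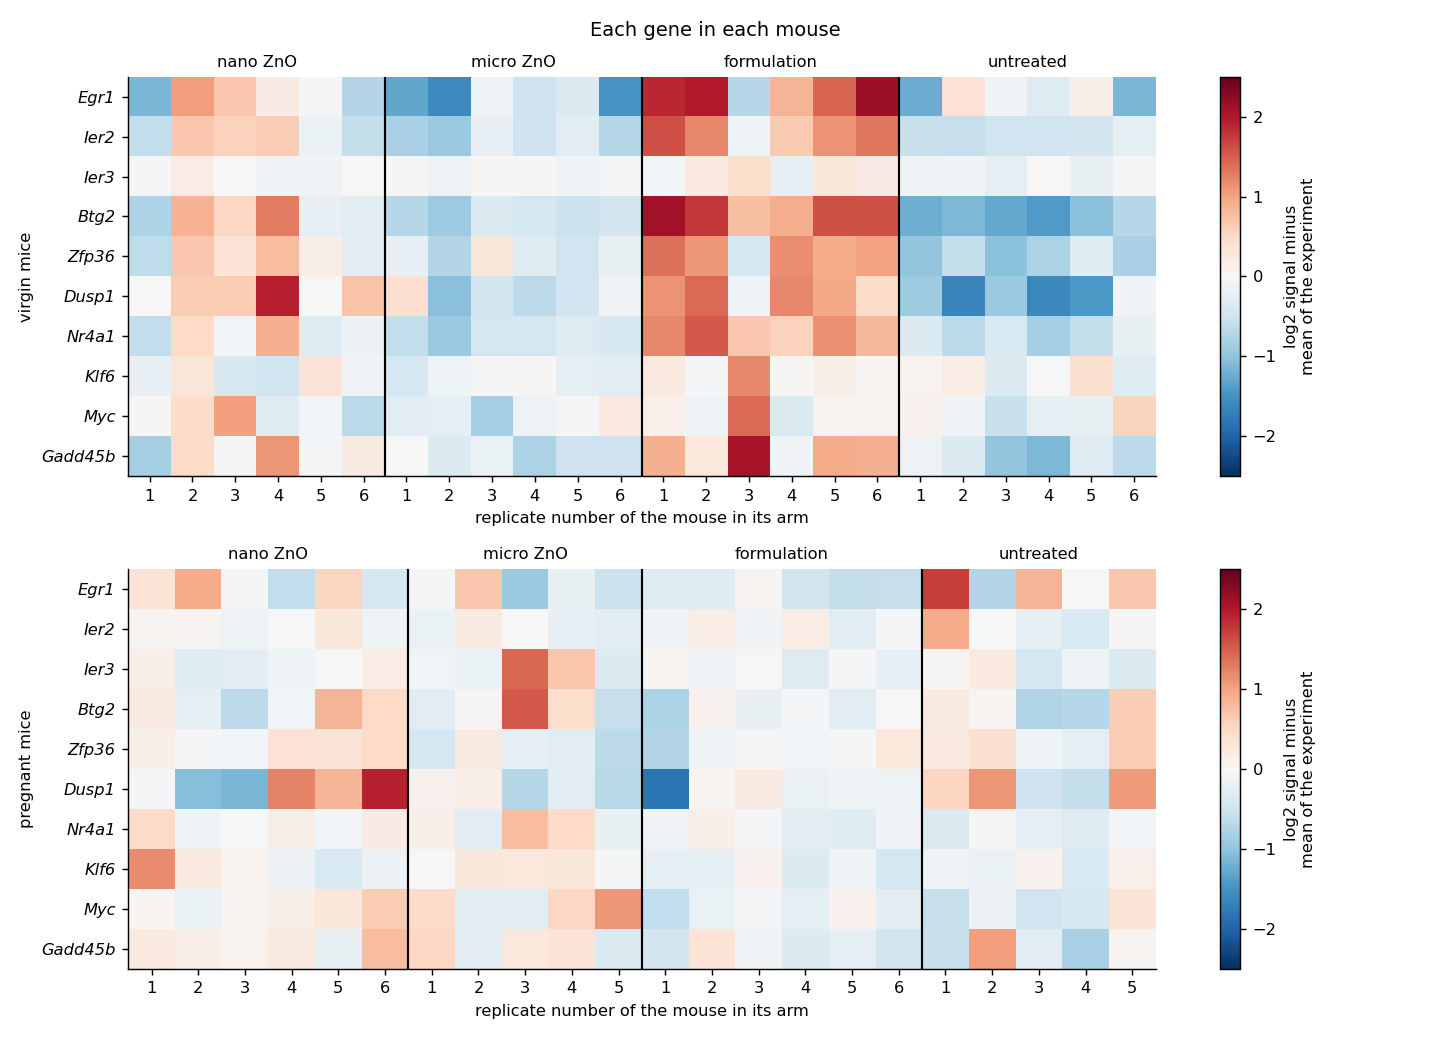
Log2 signal of each gene (rows) in each mouse (columns, by arm and replicate number) minus the mean of that gene in its experiment, for virgin mice (top) and pregnant mice (bottom); red is above and blue below that mean. Virgin formulation mice are red for most genes except Klf6 and Myc, nano ZnO replicates 2, 3 and 4 come next, and no pregnant arm is red throughout.

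Most of the genes ran together over the virgin mice. Each gene was correlated with the mean of the other 9 over the 24 arrays, which share arms and processing, so the values are a description. The correlation was 0.979 for Btg2, 0.945 for Nr4a1, 0.929 for Ier2 and 0.873 for Zfp36. Egr1 (0.741), Gadd45b (0.734) and Dusp1 (0.724) came after them, and then Ier3 (0.557), Myc (0.236) and Klf6 (0.217). Of the 45 pairs, 24 correlated above 0.5 and the median was 0.525, while deviations from the arm means had a median of 0.146. Btg2 and Nr4a1, the closest pair, kept 0.877 of such deviations, against 0.949 over all 24 arrays. In the 22 pregnant arrays the median over the pairs was 0.244, and the values for single genes ran from -0.084 (Egr1) to 0.686 (Btg2).

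The genes outside the 10 whose profile was most like their mean were mainly AP-1 genes. Over the 46 arrays, centred within each experiment, Pearson correlations were 0.941 for Jun, 0.874 for Atf3, 0.873 for Fos, 0.747 for Junb, 0.711 for Jund and 0.697 for Ccn1. Over the 24 virgin arrays alone the closest were Jun (0.965), Atf3 (0.939), Fos (0.895), Junb (0.850), Batf3 (0.835) and Lhx4 (0.829). Over the 22 pregnant arrays they were Jun (0.834), Zfp516 (0.807), Wfdc15b (0.756), Fos (0.732), Cldn14 (0.727) and Qtrt2 (0.694).

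Other early genes moved in the same virgin comparisons. With formulation 8 of 8 AP-1 genes were higher than in untreated mice, led by Jun (2.79 ± 0.29, adjusted p = 9.906e-07), Atf3 (2.36 ± 0.24, 8.625e-07), Fos (2.14 ± 0.31, 5.872e-05) and Junb (0.90 ± 0.18, 0.000896), with a median of 0.77. Of 25 other early-response genes 15 were higher and 1 lower (median 0.34), with Plk3 (1.84 ± 0.28), Pim3 (0.95 ± 0.12), Ccn1 (0.83) and Per1 (0.79) highest and the kinase gene Plk2 lower (-0.49). Of 33 relatives from the families of the 10 genes 12 were higher and 1 lower (median 0.23). The other GADD45 genes, Gadd45g (1.78 ± 0.26) and Gadd45a (1.00 ± 0.23), led them, followed by Zfp36l2 (0.47) and Klf3 (0.40), and Mxd4, a MAX partner that opposes MYC, was lower (-0.24). Of 18 upstream kinases and factors 2 were higher and 4 lower (median -0.15), with Elk1 at 0.35 ± 0.09 and Rps6ka3, which encodes the ERK-activated kinase RSK2, at -0.47 ± 0.10. The median over all probe sets was 0.03, with 11.5% of them called higher and 15% called lower, so the upstream count lies near that background.

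With nano ZnO, 2 of 8 AP-1 genes were higher than in untreated mice (Jun 1.32 ± 0.29, Atf3 1.21 ± 0.24), 6 of 25 other early-response genes were higher and 1 lower, and 2 of 33 relatives were higher and 1 lower, beside 4.77% of all probe sets called higher and 7.18% called lower. For the relatives this is near the background. Plk3 (1.502), Per1 (1.00), Pim3 (0.91) and Gadd45g (1.43 ± 0.26, adjusted p = 0.00135) were among the higher ones, and Btg1, the closest relative of Btg2, was lower (-0.48 ± 0.11, adjusted p = 0.00799). With micro ZnO, 0 of 8 AP-1 genes passed. Of 25 other early-response genes 3 were higher, Per1 (0.92), Pim3 (0.71) and Trib1 (0.47), and of the relatives Gadd45g was higher (0.93 ± 0.26, adjusted p = 0.0423) and Btg1 lower (-0.45 ± 0.11, adjusted p = 0.0256). The shares of the whole table called with micro ZnO were 1.63% higher and 2.8% lower. Per1 is also a clock gene, and the clock score averaged 0.54 in micro ZnO and -1.32 in untreated mice. The part of the clock in the Per1 change was not tested. In formulation mice, in which Btg2 had its largest change, Btg1 differed from untreated mice by -0.01 ± 0.11 (adjusted p = 0.945).

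With micro ZnO 5 of 8 AP-1 genes were lower than with formulation, with Jun at -2.28 ± 0.29, Fos at -1.997 ± 0.31, Atf3 at -1.95 ± 0.24 and Junb at -0.63 ± 0.18, beside 1.69% of all probe sets called lower. So were 4 of 25 other early-response genes, Plk3 (-0.99), Ccn1 (-0.97), Ppp1r15a (-0.41) and Csrnp1 (-0.37). The same held for 3 of 33 relatives, Gadd45g (-0.85), Zfp36l1 (-0.80) and Btg1 (-0.43). With nano ZnO 3 AP-1 genes were lower than with formulation, Fos (-1.65 ± 0.31), Jun (-1.47 ± 0.29) and Atf3 (-1.15 ± 0.24), as were the relatives Zfp36l1 (-0.84), Gadd45a (-0.84) and Btg1 (-0.47), beside 0.722% of all probe sets called lower.

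Markers of other liver cells moved in some of the same comparisons. In virgin mice 5 of 9 neutrophil markers were higher with formulation than in untreated mice, 4 of 9 with nano ZnO and 0 of 9 with micro ZnO, and 5 of 8 endothelial markers were lower in each of the 3 arms. Over all probe sets 11.5% were called higher with formulation and 4.77% with nano ZnO, and 15%, 2.8% and 7.18% were called lower with formulation, micro ZnO and nano ZnO. The mean of the 9 neutrophil markers ran from 4.23 to 5.60 in nano ZnO mice, 3.80 to 4.38 in micro ZnO mice, 4.19 to 5.04 in formulation mice and 3.94 to 4.12 in untreated mice. That of the 8 endothelial markers ran from 5.95 to 6.23, 5.92 to 6.20 and 5.89 to 6.21 in the nano ZnO, micro ZnO and formulation mice, against 6.30 to 6.49 in untreated mice. Of the 5 cholangiocyte markers 0 were called in any of the 3 arms in limma. Their mean, which ran from 4.46 to 4.69 in nano ZnO mice, 4.40 to 4.73 in micro ZnO mice, 4.51 to 4.69 in formulation mice and 4.40 to 4.56 in untreated mice, had the highest correlation with the mean of the 10 genes among the 8 marker lists. It was 0.570 over the 24 virgin arrays, which share arms, against 0.330 for the neutrophil and -0.367 for the endothelial markers. Between the particle arms and formulation 0 markers of any of the 8 cell lists passed in limma. Some markers were dim, and the lowest mean of a marker was that of Cftr, 2.62 in virgin and 2.15 in pregnant mice, below every array median. Whether the dim markers were above background was not tested. The part of the cell types in the results was not tested, and in whole liver fewer cells of a type and less RNA per cell cannot be told apart.

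In pregnant mice none of the 10 genes passed against untreated mice in any sunscreen arm (0 of 10 in each in limma). Few other probe sets did either, 0.0598% with formulation, 0.107% with micro ZnO and 0.0214% with nano ZnO. At an unadjusted p under 0.05 the genes numbered 1 with formulation, 4 with micro ZnO and 1 with nano ZnO, beside 12.3%, 9.08% and 10.2% of all probe sets. Median changes of the 10 genes were -0.10 with formulation, 0.23 with micro ZnO and 0.14 with nano ZnO.

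**Figure D5:**
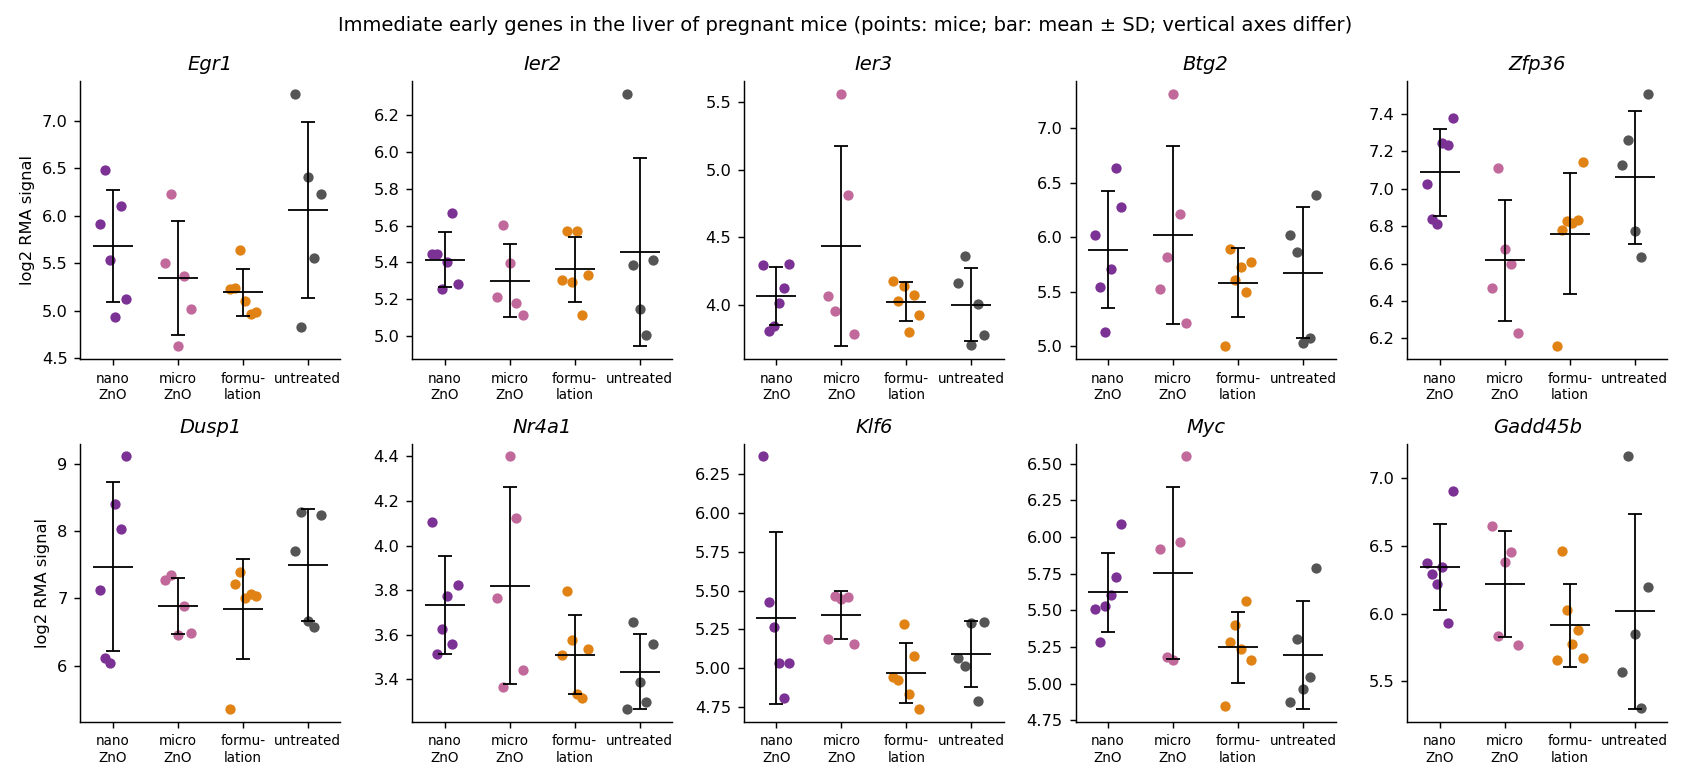
Log2 RMA signal (vertical axis, own scale for each gene) of the 10 genes in pregnant mice by arm; points are mice (n = 6, 5, 6 and 5 from left to right), the bar is the mean and the whisker the SD. The arms overlap in each panel, and Egr1 and Dusp1 spread widely among untreated or nano ZnO mice.

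Egr1 had a lowest, median and highest signal of 4.96, 5.17 and 5.64 in pregnant formulation mice, against 4.83, 5.55, 6.23, 6.41 and 7.29 in the 5 untreated mice. The formulation mice were tightly grouped within the wide untreated range, and the difference was -0.87 ± 0.33 (-1.54 to -0.19, adjusted p = 0.321). Btg2 had 5.00, 5.67 and 5.89 in formulation mice, against 5.03, 5.08, 5.86, 6.02 and 6.39 in untreated mice, a difference of -0.09 ± 0.31 (-0.73 to 0.54, adjusted p = 0.928). Dusp1 had 5.35, 7.06 and 7.39 in formulation mice, against 6.58, 6.66, 7.70, 8.24 and 8.28 in untreated mice. Here the groups overlapped apart from formulation replicate 1, which was below all untreated mice, and the difference was -0.65 ± 0.47 (-1.61 to 0.31, adjusted p = 0.575). Intervals of the other 7 genes with formulation all held 0.

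With micro ZnO in pregnant mice, Myc (0.56 ± 0.21), Zfp36 (-0.44 ± 0.18), Nr4a1 (0.39 ± 0.16) and Egr1 (-0.71 ± 0.34) were the 4 genes under an unadjusted p of 0.05, with adjusted p = 0.403, 0.423, 0.431 and 0.542. Myc was 5.16, 5.18, 5.92, 5.97 and 6.55 in the 5 micro ZnO mice, against 4.87, 4.96, 5.04, 5.31 and 5.79 in untreated mice, and the groups overlapped. Replicate 3 of the micro ZnO mice had the highest Btg2 (7.32), Ier3 (5.56) and Nr4a1 (4.40) of its arm, and replicate 4 came after it in all 3. Without these 2 mice the differences were -0.16 for Btg2, -0.07 for Ier3 and 0.09 for Nr4a1. With nano ZnO the largest difference was 0.43 ± 0.20 for Myc (adjusted p = 0.484). Dusp1 was at -0.02 ± 0.47 (-0.98 to 0.94), with a lowest, median and highest signal of 6.04, 7.58 and 9.11 in nano ZnO mice, so that its nano ZnO mice spanned more than the untreated ones did.

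Between the sunscreen arms of pregnant mice 0 of the 10 genes and 0% of all probe sets passed in limma. At an unadjusted p under 0.05 there were 3 of 10 for micro ZnO minus formulation (beside 7% of all), 0 of 10 for nano ZnO minus formulation (beside 3.07%) and 1 of 10 for nano ZnO minus micro ZnO (beside 4.64%). Formulation, highest for all 10 genes in virgin mice, was highest for 0 and lowest for 5 of the 10 in pregnant mice. The shares of all probe sets with formulation highest or lowest were not computed. None of the 8 AP-1 genes, 25 other early-response genes, 33 relatives or 18 upstream genes passed in any comparison between pregnant arms. Of the markers, 3 of 9 neutrophil genes were higher with micro ZnO than in untreated pregnant mice, beside 0.107% of all probe sets called in either direction. Their mean ran from 4.93 to 6.20 in micro ZnO mice, against 4.09 to 4.48 in untreated mice.

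The response to formulation differed between the experiments. The change against untreated mice in pregnant mice minus that in virgin mice was tested with limma over all 46 arrays, and 6 of the 10 genes passed, all lower in pregnant mice, beside 0.145% of all probe sets called in either direction and 0.0683% of all called lower. The differences were -2.67 ± 0.42 for Btg2 (-3.51 to -1.84, adjusted p = 0.0008505), -2.59 ± 0.58 for Dusp1 (-3.75 to -1.43, 0.0390) and -2.52 ± 0.57 for Egr1 (-3.66 to -1.38, 0.0404). Zfp36 was at -1.91 ± 0.32 (-2.55 to -1.27, adjusted p = 0.00223), Ier2 at -1.53 ± 0.30 (-2.14 to -0.92, 0.0181) and Nr4a1 at -1.42 ± 0.26 (-1.94 to -0.90, 0.00529). Gadd45b, at -1.52 ± 0.39, missed the threshold (adjusted p = 0.115), and Klf6 (-0.39), Ier3 (-0.24) and Myc (-0.22) were smaller. The median was -1.52 for the 10 genes and -0.01 for all probe sets.

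Of these 6 calls those of Egr1, Ier2 and Dusp1 rested on single arrays or settings. Without pregnant untreated replicate 1, which had the highest Egr1 (7.29) and Ier2 (6.32) of its arm, Egr1 was at -2.22 (adjusted p = 0.144), Ier2 at -1.31 (0.0544) and Dusp1 at -2.54 (0.0923). Without virgin untreated replicate 1, Egr1 (-2.35, adjusted p = 0.0920) and Dusp1 (-2.63, adjusted p = 0.0508) missed the threshold. With array width as a covariate none passed, at -2.26 for Btg2, -2.23 for Dusp1, -1.37 for Nr4a1, -1.27 for Zfp36, -1.06 for Egr1 and -0.998 for Ier2. All 6 were still called after the further quantile normalization. The labels describe 2 separate experiments, and their array medians differ, so pregnancy and experiment cannot be told apart.

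For the particle sunscreens the difference between the experiments did not pass for any of the 10 genes (0 of 10 in limma for each, beside 0.047% of all probe sets with micro ZnO and 0.0427% with nano ZnO). At an unadjusted p under 0.05 it did for 2 genes with micro ZnO, Dusp1 (-1.32 ± 0.59) and Zfp36 (-0.92 ± 0.32), beside 7.43% of all probe sets, and for 3 with nano ZnO, Dusp1 (-1.78 ± 0.58), Btg2 (-1.16 ± 0.42) and Zfp36 (-0.90 ± 0.32), beside 6.26%. Of the AP-1 genes 3 of 8 passed with formulation, all lower in pregnant mice, beside 0.0683% of all probe sets called lower, and 0 with either particle sunscreen. The alternatives tried for the 10 genes were not tried for the AP-1 genes. Whether the differences with formulation and with the particle sunscreens are themselves unequal was not tested.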

How the data were processed

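Total RNA from the liver of each mouse was labelled and hybridised to 1 Affymetrix whole-transcript array, per the labels' protocols. The deposited values are log2 signals. The authors made them with RMA, per the submitters' processing notes, a method that corrects background, equalises the distributions of arrays and sums probes into 1 value per probe set; its version is not given in the sources used here. Whether the 2 experiments were normalized together is not stated. All 46 columns were used and 0 were left out.

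Of 35512 probe sets, 21789 had 1 symbol in the platform annotation, 1621 had several and 12102 had none. The 23410 with a symbol were tested, and 21698 Entrez identifiers matched the RefSeq gene table (0 symbols changed). Linear models with the 4 arms of an experiment, or the 8 groups for the differences between experiments, were fitted in R 4.3.3 with limma 3.58.1. Tests were moderated and two-sided, with Benjamini-Hochberg adjustment over the 23410 probe sets and calls at 0.05. Values after ± are SE unless SD is named. The fits were tested on simulated data.

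The text names the 10 genes, up to 4 called genes of each list with the largest change, and the 6 genes most like the mean profile. The genes and lists were chosen with earlier results of these data known. The lists hold 34 relatives, 26 other early-response, 8 AP-1 and 22 upstream genes, and those without a probe set of 1 symbol (1 relative, 1 other early-response gene and 4 upstream genes) were left out. No 2 arrays were identical. The number of arrays limits the precision.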

Additional observations from a re-analysis of the deposited data

Results flagged for a closer look

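Single mice stood apart from their arm for 5 of the 10 genes by Dixon's test. Of 96 groups of values tested 8 held such a mouse, and chance gives about 1 in 20. Virgin formulation replicate 3 stood apart in 3 genes, with Klf6 at 6.92 (others 5.67 to 5.96), Myc at 7.09 (others 5.33 to 5.80) and Zfp36 at 7.56 (others 8.94 to 9.38). Pregnant formulation replicate 1 was low in Dusp1, at 5.35 (others 6.999 to 7.39), and in Zfp36, at 6.16 (others 6.78 to 7.15). Dusp1 was high in virgin nano ZnO replicate 4, at 9.93 (others 7.97 to 8.69), and Ier2 in virgin untreated replicate 6, at 6.37 (others 6.00 to 6.12). The array of pregnant nano ZnO replicate 2 was wide, with an interquartile range of 3.23 (others 3.10 to 3.14).

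The change with formulation in pregnant mice minus that in virgin mice differed from 0 for 6 genes in limma. It was -2.67 for Btg2, -2.59 for Dusp1, -2.52 for Egr1, -1.91 for Zfp36, -1.53 for Ier2 and -1.42 for Nr4a1. Each of the 6 rose with formulation in virgin mice and passed in no sunscreen arm of pregnant mice.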

How the results depend on the processing

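The alternatives tried were a test without the dimmest 40% of probe sets, a test of the whole table, moderation with an intensity trend, array weights, a further quantile normalization, only the compared groups in the fit, replicate number as a block, a minimum change of 1.5-fold, array width (interquartile range) or clock score as a covariate, and each array left out in turn. Of 3594 fits of a gene under an alternative, 3491 kept their side of the threshold, 93 lost a call, 10 gained one and 0 called values changed sign. Most of these fits are of genes not called in the main fit, which had no call to lose. With array width as a covariate 20 calls were lost. Another 111 values that were not called changed sign. Counts of called genes moved as follows in virgin mice. Formulation minus untreated had 2 with array width as a covariate, against 8 (7 to 8 when 1 array was left out). Nano ZnO minus untreated had 0 with the clock score, against 3 (3 to 5, with 5 without nano ZnO replicate 1). Micro ZnO minus untreated had 1 with only the compared groups, against 0 (0 to 0). Micro ZnO minus formulation had 3 with array width, against 7 (7 to 8). Nano ZnO minus formulation had 0 with only the compared groups, 0 with array width and 0 with the clock score, against 3 (2 to 5, with 5 without formulation replicate 3). The difference between the experiments with formulation had 0 with array width, against 6 (3 to 6, with 3 without pregnant untreated replicate 1). The counts of the remaining comparisons were 0 to 0 with 1 array left out. The causes were not tested.

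With the replicate number as a block, 3 genes differed between the experiments with formulation, against 6 without it, and nano ZnO minus formulation had 2, against 3. The labels name no pairing by number. Deviations of same-numbered arrays had a median correlation of -0.127 in the virgin experiment (1 of 36 pairs above 0.1), against 0.040 for other pairs. In the pregnant experiment it was 0.024 (12 of 31 pairs above 0.1), against -0.008 for other pairs. Such correlations cannot settle whether a number stands for a shared step. Of the 24 virgin arrays 0 and of the 22 pregnant arrays 4 correlated best with their own number. The planned use of the next probe set of a gene was not possible because each gene has 1 probe set. Without the pregnant micro ZnO replicates 3 and 4 together, no gene gained or lost a call.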
